A study of Mus musculus with 18 samples.

Results

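Integrins and the other cell surface receptors for extracellular matrix were followed as a set of 35 mouse genes, out of the 55487 genes counted in each library. The set was defined by name: 17 integrin alpha subunits, 8 integrin beta subunits, the collagen receptors Ddr1, Ddr2 and Mrc2, the laminin receptor Dag1, the hyaluronan receptor Cd44, the scavenger receptor Stab1 and the syndecans Sdc1, Sdc2, Sdc3 and Sdc4. The rule uses no measured value, although the genes and lists were chosen with earlier results of these data known. Poly(A) RNA had been sequenced in 18 libraries of T23 tumour cells, 3 for each of 6 groups. The groups were T23 cells alone, T23 cells with wild-type fibroblasts (the wild-type co-culture), T23 cells with SPARC-deficient fibroblasts (labelled Fibro SparcKO, here the Sparc-deficient co-culture), T23 cells with enzalutamide, T23 cells with fibroblasts and enzalutamide (the enzalutamide co-culture), and T23 cells with fibroblasts, enzalutamide and isoliquiritigenin (the isoliquiritigenin co-culture). Enzalutamide is an androgen receptor antagonist and isoliquiritigenin is a plant chalcone. The labels name T23 only as tumour cells, and the title of the series places the work in prostate cancer. Doses, times, the ratio of fibroblasts to tumour cells and the separation of cells before RNA extraction are not given in the sources used here. Descriptions of both enzalutamide co-culture groups call the fibroblasts human, whereas their titles carry the fibroblast name of the wild-type co-culture (FIBROB6). Comparisons of a treated with an untreated co-culture, and of the enzalutamide response with and without fibroblasts, therefore rest on libraries whose fibroblasts may differ. Whether the 3 libraries of a group came from separate cultures is not stated either, so p-values measure the spread between these libraries, which may be technical.

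Integrins are heterodimers of an alpha and a beta subunit that hold cells to matrix proteins and signal through talin, kindlin, focal adhesion kinase and Src. Itgb1 is the partner of most alpha subunits, while Itgav pairs with several beta subunits and reads the RGD peptide of fibronectin, vitronectin and osteopontin. Discoidin domain receptors are kinases switched on by collagen, dystroglycan binds laminin through its sugar chains, and syndecans carry heparan sulfate chains that bind matrix proteins and growth factors beside integrins. Stabilin-1, the product of Stab1, is a scavenger receptor known to take up Sparc. In the prostate, the laminin-binding integrins anchor epithelium to its basement membrane.

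Library totals were 16.1 to 26.7 M counts. Between 18123 and 20154 genes had a count in a library. For a gene at 0, the upper limit of 3 counts stands for 0.112 to 0.186 CPM by unscaled library totals, which covers counting error only. The library at 0.186 had a TMM factor of 0.685, so its limit is higher on the TMM-scaled CPM used here. In replicate 2 of enzalutamide without fibroblasts, 26.4% of counts lay on the ribosomal RNA gene CT010467.1, against at most 0.138% in the other 17 libraries. Sparc, the gene that the labels give as lacking in the fibroblasts of the Sparc-deficient co-culture, stood at 3099, 3014 and 2975 CPM there and at 3047, 3089.6 and 3065 CPM in the wild-type co-culture, so its level does not check that label. It was 3205, 3189.9 and 3189 CPM in cells alone, 2649.6, 2665 and 2589 with enzalutamide, 2584, 2795 and 2798 in the enzalutamide co-culture and 2819, 2788 and 2736 in the isoliquiritigenin co-culture. Mitochondrial transcripts took 0.824% to 1.11% of counts in cells alone, 0.853% to 1.34% in the wild-type co-culture, 0.944% to 1.68% in the Sparc-deficient co-culture, 1.88% to 4.06% with enzalutamide, 1.55% to 2.71% in the enzalutamide co-culture and 2.80% to 3.77% in the isoliquiritigenin co-culture.

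The libraries carried markers of mesenchyme and few of epithelium. Of 12 fibroblast and mesenchymal markers, 11 averaged at least 1 CPM in every group, cells alone included, and Pdgfra, a receptor of mesenchymal cells, was at 1030.2 CPM or more in every library. Of 11 epithelial markers, 10 stayed under 1 CPM in every library, Epcam among them, and Krt19 reached 18.4 CPM. The summed epithelial markers were 10.1 to 11.5 CPM in cells alone, 13.1 to 14.99 in the wild-type co-culture, 17.1 to 19.8 in the Sparc-deficient co-culture, 8.45 to 11.1 with enzalutamide, 6.14 to 8.53 in the enzalutamide co-culture and 2.07 to 3.23 in the isoliquiritigenin co-culture. Fibroblast marker sums in the same order were 35128 to 36473, 33964 to 35352, 36786 to 38540.5, 30328 to 32761, 30200.0 to 31402 and 25936 to 26134 CPM. Prostate luminal marker sums were 97.1 to 106, 109.5 to 113, 80.4 to 95.7, 112 to 137, 124 to 138 and 172 to 206 CPM, with 5 of 7 genes under 1 CPM in every library, and neuroendocrine sums were 174 to 181, 160.4 to 177, 187 to 193, 136 to 166, 134 to 140.1 and 123 to 147 CPM, also with 5 of 7 genes under 1 CPM. The fibroblast list does not separate fibroblasts from these tumour cells. In such bulk RNA, fewer cells of a type and less RNA per cell cannot be told apart.

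Levels of different genes were compared as RPKM, that is normalised CPM per kb of merged exons. In T23 cells alone, 23 of the 35 genes stood at an RPKM of 1 or more. Itgb1 was the most abundant at 232 ± 5.98 RPKM (mean ± SD, n = 3), followed by the alpha v partner Itgb5 at 169 ± 4.81 and by Sdc2 at 108 ± 0.918. Next came the collagen uptake receptor Mrc2 at 93.7 ± 1.10, Cd44 at 86.9 ± 1.88 and the fibronectin receptor subunit Itga5 at 68.4 ± 1.20. Dag1 (59.7 ± 1.46), Sdc4 (55.04 ± 2.17), Ddr2 (52.2 ± 0.777), Itga3 (49.8 ± 1.55) and Itgav (47.4 ± 1.59) formed a middle tier. Sdc1 (35.2 ± 1.64), Ddr1 (26.8 ± 0.324), Itga11 (22.7 ± 0.850), Itga6 (14.2 ± 0.619), Itga7 (6.83 ± 0.133) and Itgb8 (4.59 ± 0.120) were lower. Between RPKM values of 1 and 4 lay Itgb2 (3.28 ± 0.369), Sdc3 (2.38 ± 0.270), Itgb3 (2.19 ± 0.117), Itga2b (1.91 ± 0.277), Itga8 (1.88 ± 0.0899) and Itgb7 (1.65 ± 0.152). Of the 22 neighbouring pairs in this order, 7 had overlapping ranges over the 3 libraries. These were the steps from Sdc4 through Ddr2 and Itga3 to Itgav, and those from Sdc3 through Itgb3, Itga2b and Itga8 to Itgb7. With the longest transcript as the length, 1 gene moved by more than 2 places, Itgav, which rose by 4.

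Below 1 RPKM in cells alone were Itga10 (0.487 ± 0.0520), Stab1 (0.407 ± 0.0315), Itga1 (0.375 ± 0.00877), Itgb4 (0.287 ± 0.0549), Itga9 (0.203 ± 0.0323), Itgae (0.114 ± 0.0241) and Itga2 (0.0602 ± 0.0102). Itga2 and Itgae rested on 3 to 13 and 3 to 17 counts per library. Itga4, Itgal, Itgam, Itgax and Itgb6 had at most 7 counts in any library and were not tested. They encode lymphocyte and myeloid integrin subunits, apart from Itgb6, an epithelial partner of alpha v. Hence 30 of the 35 genes entered the tests, and a gene at such counts passed or missed the filter on its own level.

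**Figure D1:**
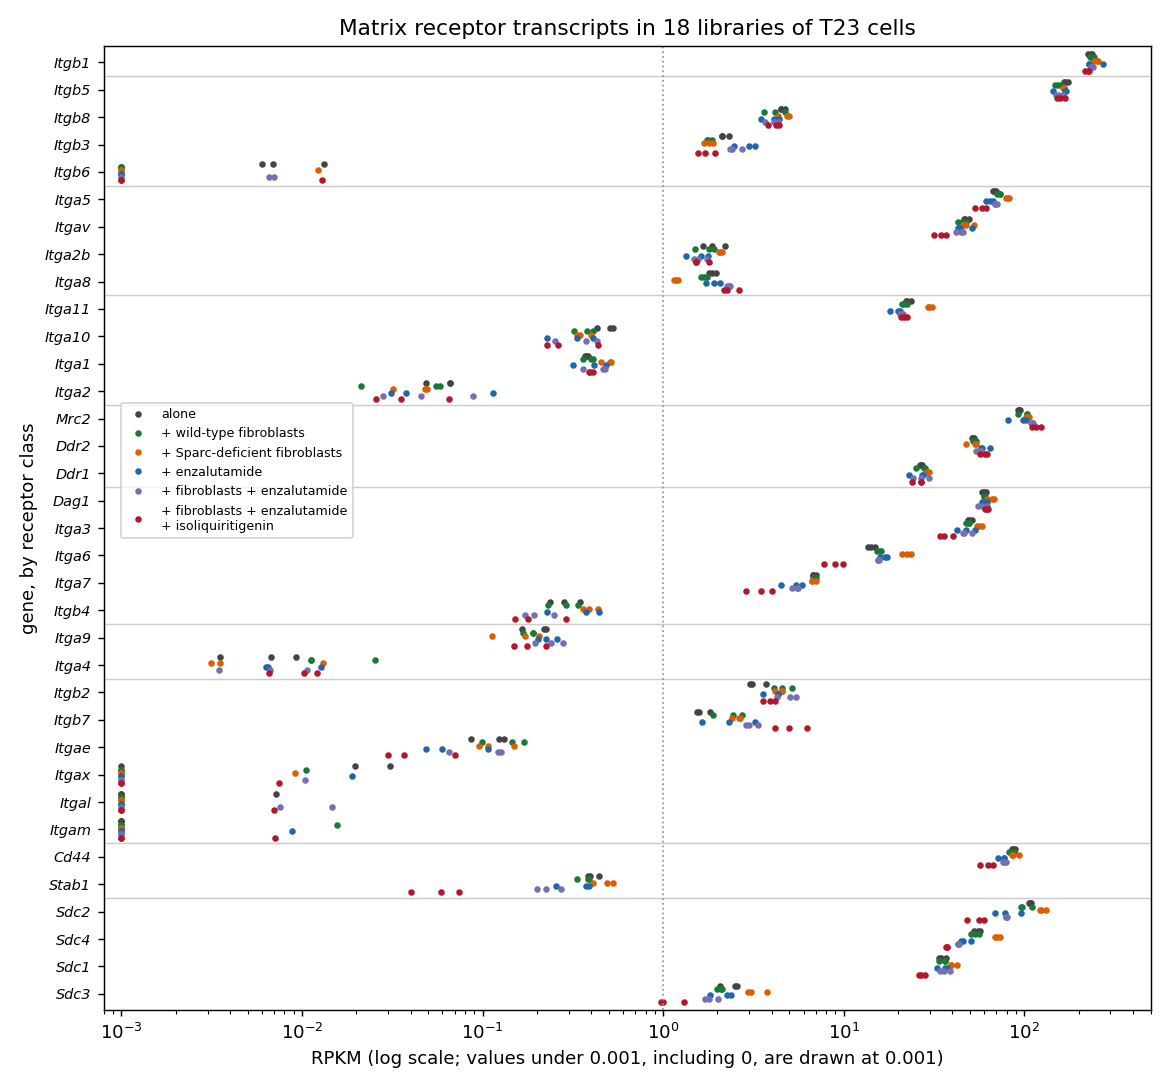
RPKM on a log axis for each of the 35 genes (rows, by receptor class) in each of the 18 libraries (points, coloured by group; values under 0.001, including 0, are drawn at 0.001; the dotted line marks 1 RPKM). Itgb1 and Itgb5 sit at the right in every group, Itga4, Itgal, Itgam, Itgax and Itgb6 lie far to the left of the line, and the Stab1 points of the isoliquiritigenin co-culture lie apart from the others.

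Among the alpha subunits, Itga5, Itga3 and Itgav made up most of the transcripts. Itga5 held 31.9% ± 0.255 of the summed alpha-subunit RPKM in cells alone, Itga3 23.2% ± 0.255 and Itgav 22.1% ± 0.303, with Itga11 at 10.6% ± 0.517 and Itga6 at 6.62% ± 0.172. By merged exons, group means stood in that order in all 6 groups. The ranges of Itga3 and Itgav overlapped in the wild-type co-culture, with enzalutamide and in the isoliquiritigenin co-culture. By the longest transcript, RPKM in cells alone was 76.5 for Itga5, 72.3 for Itgav and 58.5 for Itga3. Itga6 then had 29.7 and Itga11 23.4, so the order and the shares depend on the length used. The Itga6 share ran from 5.29% ± 0.370 in the isoliquiritigenin co-culture to 8.97% ± 0.339 in the Sparc-deficient co-culture. Summed alpha-subunit RPKM was 214 ± 4.62 in cells alone, 216 ± 1.82 in the wild-type co-culture, 249 ± 6.35 in the Sparc-deficient co-culture, 204 ± 6.62 with enzalutamide, 208 ± 2.48 in the enzalutamide co-culture and 168 ± 8.44 in the isoliquiritigenin co-culture. Divided by Itgb1, these sums gave ratios of 0.924 ± 0.0262, 0.914 ± 0.0271, 0.995 ± 0.00892, 0.849 ± 0.107, 0.883 ± 0.0221 and 0.752 ± 0.0268. The sum was thus lowest with isoliquiritigenin and highest with Sparc-deficient fibroblasts, as a description of group means.

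**Figure D2:**
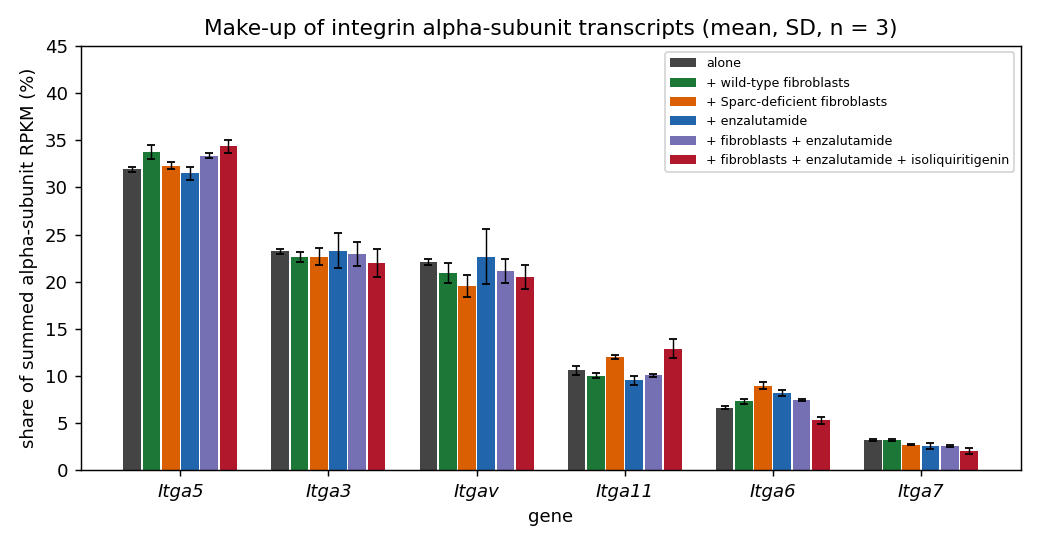
Share of the summed alpha-subunit RPKM (%, bars from 0, mean with SD over 3 libraries) held by the 6 most abundant alpha subunits in each of the 6 groups. Itga5 is the largest in every group, and Itga6 is lowest in the isoliquiritigenin co-culture at 5.29% ± 0.370 (SD).

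Receptors differed in how far their group means lay apart. The highest group mean over the lowest was 1.10 for Itgb5, 1.12 for Dag1, 1.13 for Itgb1 and 1.14 for Ddr1. Among tested genes with a mean of at least 1 CPM over the 18 libraries, the widest ratios were 8.22 for Stab1, 3.12 for Itgb7, 2.99 for Sdc3, 2.52 for Itga6 and 2.31 for Sdc2, while Itgae, at 3 to 17 counts per library, had 3.03. On GRCm38 (GENCODE M21), the former 5 and Itga8 lie at chr14:31139013-31168641 for Stab1, chr15:102215995-102231944 for Itgb7, chr4:130792537-130826319 for Sdc3, chr2:71745616-71858416 for Itga6, chr15:32920723-33034935 for Sdc2 and chr2:12106632-12301922 for Itga8. Calls below rest on an adjusted p under 0.05 by edgeR's quasi-likelihood test, with Benjamini-Hochberg adjustment over the 13600 tested genes. Of the 30 tested genes, 18 were called in at least 1 of 7 comparisons, in 47 pairs of gene and comparison, of which 1 was a change of at least 2-fold. Several comparisons share a group and are not independent of each other: cells alone served in 3, the wild-type co-culture in 3 and the enzalutamide co-culture in 3.

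Wild-type fibroblasts beside the tumour cells went with little change in these receptors. Only Itgb2 rose, 1 of 30 genes, where 0.515% of all tested genes were called (0.257% higher). The median log2 fold change of the 30 genes was -0.035, against 0.00021 over all tested genes. The call was lost without any 1 of the 6 libraries compared, with adjusted p from 0.0733 without replicate 3 of cells alone to 0.284 without its replicate 1, and it was lost with library totals in place of TMM.

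Sparc-deficient fibroblasts went with higher levels. Compared with the wild-type co-culture, 6 of 30 genes rose (Itga6, Itga11 and all of Sdc1, Sdc2, Sdc3 and Sdc4) and Itga8 fell, where 11.5% of all tested genes were called (6.72% higher and 4.79% lower). Compared with cells alone, 9 rose and 1 fell, where 9.74% of all tested genes were called (6.1% higher and 3.65% lower). Median log2 fold changes of the 30 genes were 0.12 and 0.13, against -0.0054 and -0.0058 over all tested genes. Against cells alone the count was 6 without replicate 1 or replicate 2 of cells alone, 5 without replicate 2 of the Sparc-deficient co-culture and 13 when the ribosomal-RNA-rich library was dropped from the fit. Library totals in place of TMM ended the calls of Sdc1, Sdc2 and Sdc4 against the wild-type co-culture, leaving 3 higher and 1 lower. Against cells alone they left Itga6 higher and Itga8 lower and ended the other 8. The fibroblast, epithelial and neuroendocrine marker sums given above were higher, and the prostate luminal sum lower, in every Sparc-deficient co-culture library than in any other library, and their part in these results was not tested.

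Enzalutamide without fibroblasts moved receptors in both directions. Itga6, Itgb3, Itgb7 and Ddr2 rose and Itga7, Itga11, Sdc2, Sdc4 and Cd44 fell, 9 of 30 genes, where 12% of all tested genes were called (6.84% higher and 5.19% lower). The median log2 fold change was -0.054, against 0.00031 over all tested genes. The count was 3, all lower, without replicate 1 of cells alone and also when the 2 compared groups alone were fitted, and 8 when the ribosomal-RNA-rich library was dropped. Library totals in place of TMM moved the median of all tested genes by -0.19 and gave 6 lower and 0 higher, ending the calls of Itga6, Itgb3, Itgb7 and Ddr2. The share of mitochondrial counts, given above, was higher in every enzalutamide library than in any untreated library of cells alone. The fibroblast and neuroendocrine marker sums were lower and the prostate luminal sum higher in each, also without overlap, and the part of these shifts in the results was not tested.

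In the co-culture, enzalutamide went with 2 higher genes (Itga8 and Itgb3) and 4 lower ones (Itga7, Sdc2, Sdc4 and Stab1), where 7.18% of all tested genes were called (3.7% higher and 3.49% lower). The median log2 fold change was -0.033, against 0.0022 over all tested genes. With the numbering series of the titles as a term, which restarts after S16 and sets replicates 2 and 3 of the enzalutamide co-culture apart, 2 genes kept a call, and 3 did without replicate 3 of the wild-type co-culture. Library totals in place of TMM left 0 calls by edgeR. Every enzalutamide co-culture library had a higher mitochondrial share and lower fibroblast, epithelial and neuroendocrine marker sums than any wild-type co-culture library, and a higher prostate luminal sum, and their part in these results was not tested. Under enzalutamide, 0 of 30 genes differed between cells with and without fibroblasts by edgeR, where 2.08% of all tested genes were called (1.14% higher and 0.941% lower). At an unadjusted p under 0.05 there were 7, and DESeq2 called 1, Mrc2, which edgeR also called without replicate 3 of enzalutamide without fibroblasts (adjusted p = 0.0235). The test of whether the enzalutamide response differed with and without fibroblasts called 0 of the 30 genes by edgeR and 0 by DESeq2, with 3 at an unadjusted p under 0.05, where 0.0221% of all tested genes were called (0.0147% higher and 0.00735% lower).

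Isoliquiritigenin added to the enzalutamide co-culture went with lower levels. Against the enzalutamide co-culture, 13 of 30 genes fell and Itgb7 rose, where 26.5% of all tested genes were called (12.9% higher and 13.6% lower). The genes that fell were Itga3, Itga5, Itga6, Itga7, Itgav, Itgb2, Itgb3, Cd44, Stab1, Sdc1, Sdc2, Sdc3 and Sdc4. The median log2 fold change of the 30 genes was -0.25, against -9.7e-05 over all tested genes. Without replicate 1 of the enzalutamide co-culture, which leaves 5 compared libraries of the later numbering series, 14 genes were called, 1 higher and 13 lower, and with library totals in place of TMM 9 were called, Cd44, Itga3, Itga5, Itgb2 and Sdc4 no longer among them. The fibroblast and epithelial marker sums given above were lower in every isoliquiritigenin library than in every enzalutamide co-culture library, and the mitochondrial share and the prostate luminal sum were higher in each. The part of these shifts in the results was not tested.

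Ranges over 3 libraries that did not overlap between the compared groups were counted as well. Among the 30 genes there were 8 such genes for the wild-type co-culture over cells alone, against 20.5% of all tested genes. The Sparc-deficient co-culture had 16 against the wild-type co-culture (30.4% of all tested genes) and 19 against cells alone (32.8%). Enzalutamide had 11 without fibroblasts (29.8%) and 12 in the co-culture (25.8%), fibroblasts under enzalutamide 6 (14.9%) and isoliquiritigenin 15 (40.5%). As shares of the 30 genes these are 26.7%, 53.3%, 63.3%, 36.7%, 40%, 20% and 50%, in that order.

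**Figure D3:**
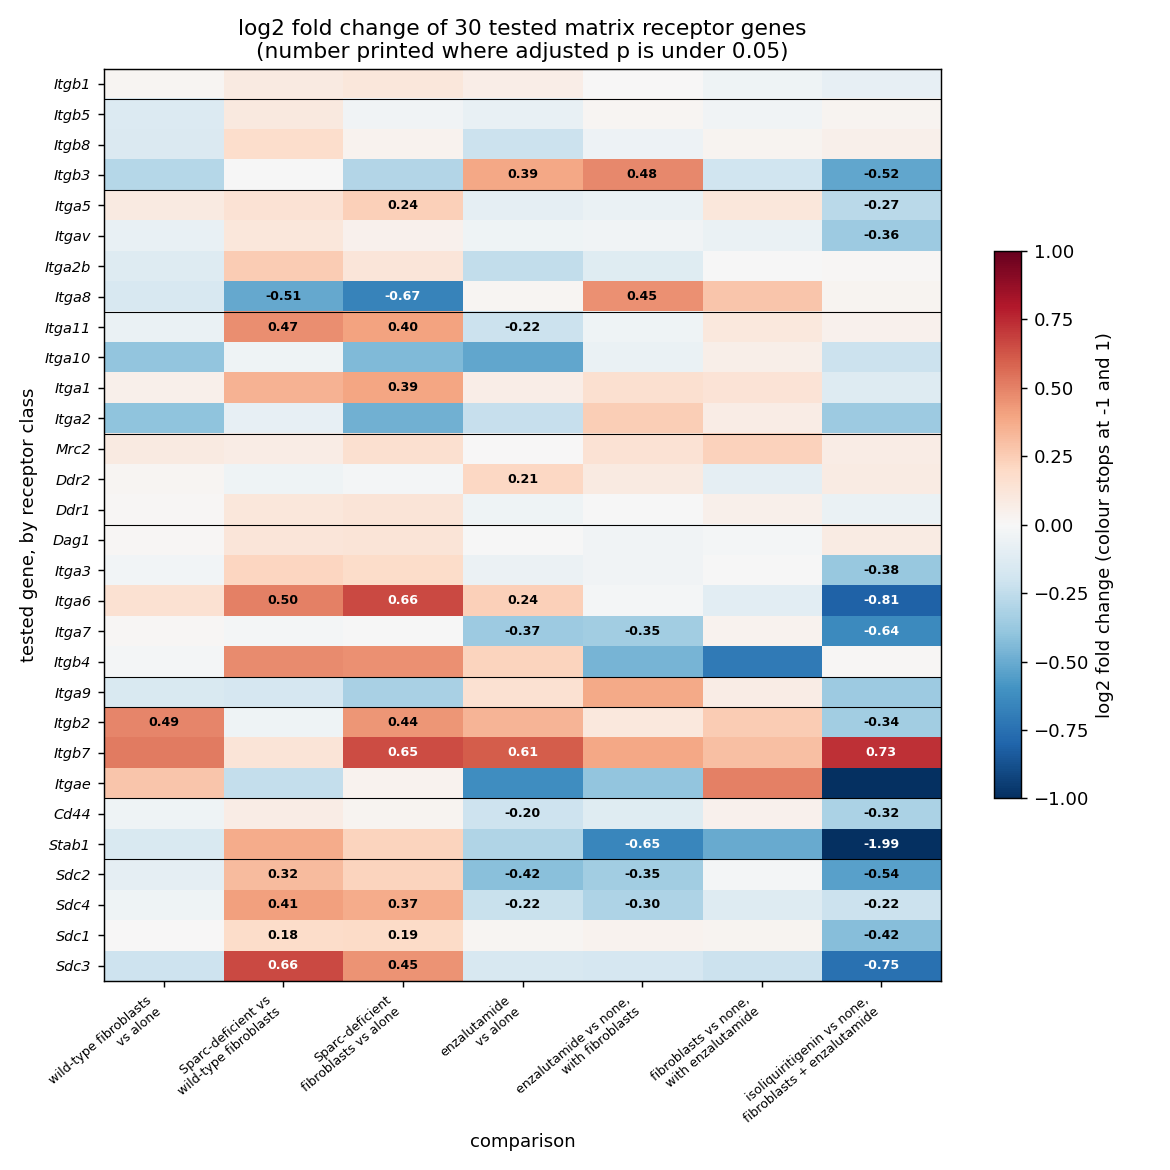
Log2 fold change (colour, limited to -1 and 1) of the 30 tested genes (rows, by receptor class) in the 7 comparisons (columns), with the value printed where adjusted p is under 0.05. The column of isoliquiritigenin holds 13 printed falls and 1 rise, and the column of fibroblasts under enzalutamide holds none.

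Itgb1, the common beta subunit, was called in no comparison by edgeR or DESeq2, and its unadjusted p was 0.0784 or more in each. It stood at 966, 920.02 and 956 CPM in cells alone, 952, 944 and 991 in the wild-type co-culture and 987, 1048 and 1035 in the Sparc-deficient co-culture. With enzalutamide it was 926, 1117 and 930.4, in the enzalutamide co-culture 950.4, 981 and 958 and in the isoliquiritigenin co-culture 927, 883 and 916. The highest of the 18 values came from replicate 2 of enzalutamide, the library rich in ribosomal RNA. The largest log2 fold change was 0.11 ± 0.060 (SE), Sparc-deficient co-culture over cells alone, adjusted p = 0.292.

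Of the collagen-binding alpha subunits, Itga11, a receptor for fibrillar collagen on mesenchymal cells, was the abundant member. It stood at 121, 113 and 115 CPM in cells alone, 114, 107 and 111 in the wild-type co-culture and 149.8, 152 and 158 in the Sparc-deficient co-culture. All 3 Sparc-deficient co-culture libraries lay above every other library of the study. The rise was 1.38-fold over the wild-type co-culture (log2 fold change 0.47 ± 0.051 (SE), adjusted p = 9.37e-07) and 1.32-fold over cells alone (0.40 ± 0.050, adjusted p = 8.93e-06). With enzalutamide Itga11 was 103, 92.3 and 105 CPM, below each library of cells alone (log2 fold change -0.22 ± 0.051 (SE), adjusted p = 0.00761). This call was lost without replicate 1 of cells alone (adjusted p = 0.0568) and with the 2 compared groups fitted alone (0.0872). The enzalutamide co-culture had 105, 109 and 109 CPM and the isoliquiritigenin co-culture 107, 114 and 111 CPM, and these ranges overlapped.

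Itga1, a receptor for collagen IV and other collagens, was at 8.43, 9.60 and 9.50 CPM in the Sparc-deficient co-culture and 6.91, 7.16 and 6.86 CPM in cells alone (log2 fold change 0.39 ± 0.12 (SE), adjusted p = 0.045). It shares exon sequence on the same strand with Pelo, so its count is uncertain. Its call was lost without any of the 3 libraries of cells alone (adjusted p up to 0.134), without replicate 2 or 3 of the Sparc-deficient co-culture (0.15 and 0.143), and by DESeq2 (0.0588). Itga10 and Itga2 were called in no comparison, at group means of 1.60 to 2.52 and 0.299 to 0.435 CPM. Among the tested genes, 1 annotated gene on the same strand also overlapped Itga2b, Itga5, Itga7, Itga8, Itga10 and Ddr1, and 2 overlapped Itga6. On the opposite strand, 1 annotated gene overlapped each of Cd44, Ddr1, Ddr2, Itga1, Itga6, Itga7, Itga8, Itgae and Stab1. There, 2 overlapped each of Itga9, Itgav and Sdc3. These overlaps were counted by gene span, not by exon.

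Among collagen receptors outside the integrins, the discoidin receptor Ddr2 rose with enzalutamide. It stood at 541, 600.00 and 532 CPM with the drug and at 491, 477 and 483 CPM in cells alone, without overlap (log2 fold change 0.21 ± 0.059 (SE), adjusted p = 0.0232). The call was lost without any of the 3 libraries of cells alone (adjusted p up to 0.0847), without replicate 2 of enzalutamide (0.08) and with the 2 groups fitted alone (0.0703), and with library totals the direction turned (log2 fold change -0.00466). Ddr1 was called in no comparison over all 18 libraries, but was for the Sparc-deficient co-culture over cells alone with those 2 groups fitted alone (adjusted p = 0.0317), at group means of 123 to 139.6 CPM. Mrc2, which carries collagen into lysosomes, was not called by edgeR over all 18 libraries either. It was 732, 729.5 and 748 CPM in the enzalutamide co-culture and 657, 539.6 and 687 CPM with enzalutamide without fibroblasts (log2 fold change 0.23 ± 0.070 (SE), adjusted p = 0.0873). DESeq2 called this difference (adjusted p = 0.0315), as did edgeR without the filter (0.00615). With the 2 groups fitted alone, Mrc2 was called for the Sparc-deficient co-culture over cells alone (0.00363), as it was without replicate 2 of enzalutamide in the fit (0.0250).

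Itga6, the alpha subunit of the laminin receptors of basement membranes, showed the widest swing among the abundant integrins. It was 127, 123 and 134 CPM in cells alone, 138, 144 and 145 in the wild-type co-culture and 189.7, 213 and 203 in the Sparc-deficient co-culture. It was 144, 152 and 157 with enzalutamide, 142, 140.4 and 139.96 in the enzalutamide co-culture and 81.00, 70.2 and 89.3 in the isoliquiritigenin co-culture. The Sparc-deficient co-culture libraries were the 3 highest of the study and the isoliquiritigenin co-culture libraries the 3 lowest. Itga6 rose 1.42-fold in the Sparc-deficient over the wild-type co-culture (log2 fold change 0.50 ± 0.063 (SE), adjusted p = 7.98e-06) and 1.58-fold over cells alone (0.66 ± 0.063, adjusted p = 1.45e-07). It fell 1.75-fold with isoliquiritigenin (log2 fold change -0.81 ± 0.065 (SE), adjusted p = 3.61e-09). The rise with enzalutamide over cells alone was smaller (log2 fold change 0.24 ± 0.064 (SE), adjusted p = 0.0155). That call was lost without replicate 1 or 2 of cells alone (adjusted p = 0.0573 and 0.0827), without replicate 3 of enzalutamide (0.0543), with the 2 groups fitted alone (0.0522) and with library totals (0.822).

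Itgb4, which joins Itga6 in hemidesmosomes of epithelium, stayed at group means of 1.44 to 2.76 CPM and was called in no comparison.

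Itga7, the laminin receptor subunit best known from muscle, had lower values in each of the 3 groups that received enzalutamide. It stood at 54.4, 56.5 and 55.00 CPM in cells alone, 54.9, 55.7 and 56.9 in the wild-type co-culture and 54.2, 54.1 and 56.7 in the Sparc-deficient co-culture. With enzalutamide it was 43.8, 36.2 and 47.5, in the enzalutamide co-culture 45.1, 41.9 and 44.6 and in the isoliquiritigenin co-culture 32.5, 23.3 and 28.3. No library with enzalutamide reached the range of the untreated ones. The fall was 1.29-fold without fibroblasts (log2 fold change -0.37 ± 0.088 (SE), adjusted p = 0.00789) and 1.27-fold with them (-0.35 ± 0.087, adjusted p = 0.0143), and isoliquiritigenin went with a further 1.56-fold fall (-0.64 ± 0.090, adjusted p = 8.86e-06). In the co-culture the call was lost without replicate 3 of the wild-type co-culture (adjusted p = 0.0536), without replicate 2 of the enzalutamide co-culture (0.0848) and with numbering series as a model term (0.298).

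Itga3, another laminin receptor subunit, fell with isoliquiritigenin, from 264, 259.9 and 294 to 194, 205 and 231 CPM, with no overlap (log2 fold change -0.38 ± 0.070 (SE), adjusted p = 0.000272). In the Sparc-deficient co-culture it was 321, 334 and 313 CPM against 283, 282 and 270.2 in the wild-type co-culture, and the difference missed the threshold (log2 fold change 0.21 ± 0.070 (SE), adjusted p = 0.0519), although DESeq2 called it (adjusted p = 0.0300). Dag1 was called in no comparison over all 18 libraries by edgeR. For the Sparc-deficient co-culture over cells alone, DESeq2 called it (adjusted p = 0.0382), as did edgeR with the 2 groups fitted alone (0.0311), at group means of 373 to 416 CPM.

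**Figure D4:**
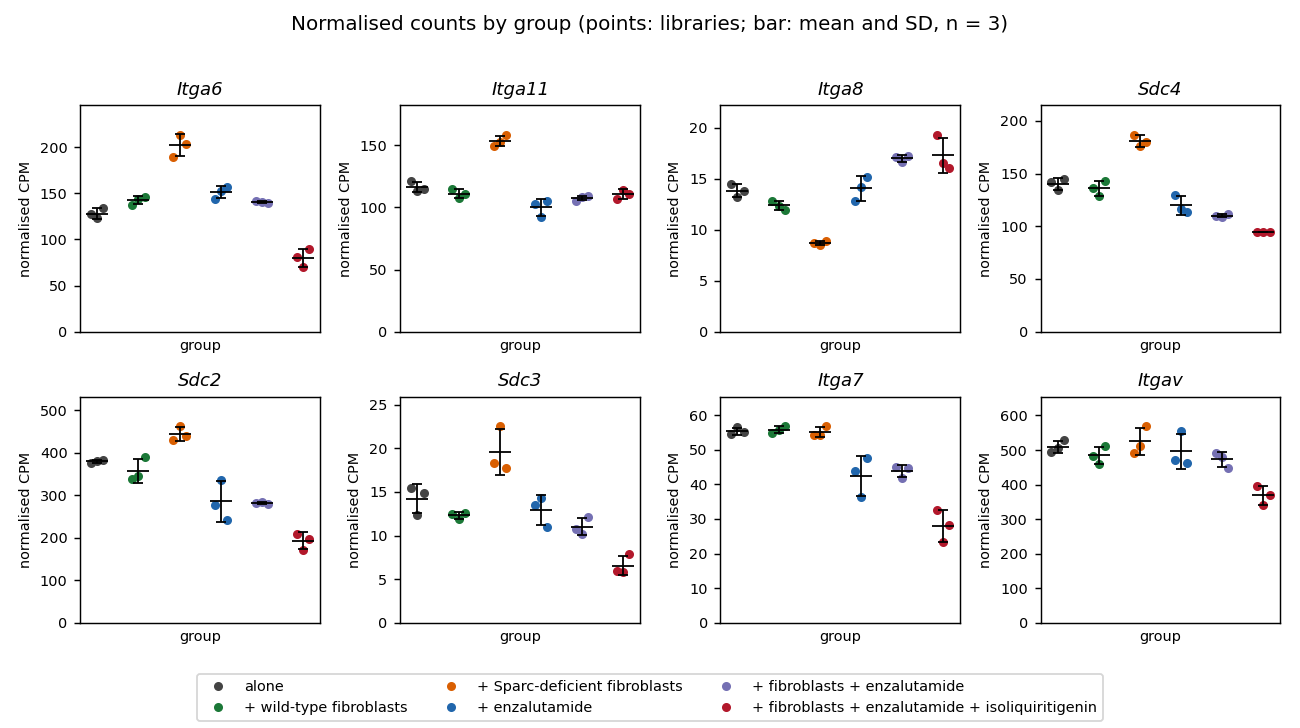
Normalised CPM (axes from 0) of Itga6, Itga11, Itga8, Sdc4, Sdc2, Sdc3, Itga7 and Itgav in each library, coloured by group, with mean and SD over 3 libraries. The Sparc-deficient co-culture stands highest for Itga6, Itga11, Sdc2, Sdc3 and Sdc4 and lowest for Itga8, and the isoliquiritigenin co-culture stands lowest for Itga6, Itga7, Itgav, Sdc2, Sdc3 and Sdc4.

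The RGD-binding alpha subunits did not move together. Itga8, a receptor for nephronectin and fibronectin on mesenchymal cells, was 14.5, 13.2 and 13.8 CPM in cells alone, 12.9, 12.4 and 11.98 in the wild-type co-culture and 8.70, 8.47 and 8.93 in the Sparc-deficient co-culture. It was 12.8, 14.1 and 15.2 with enzalutamide, 17.1, 16.6 and 17.2 in the enzalutamide co-culture and 19.3, 16.5 and 16.05 in the isoliquiritigenin co-culture. The 3 libraries with Sparc-deficient fibroblasts were the lowest of the study, the reverse of Itga6 and Itga11. Itga8 fell 1.42-fold below the wild-type co-culture (log2 fold change -0.51 ± 0.092 (SE), adjusted p = 0.000594) and 1.59-fold below cells alone (-0.67 ± 0.091, adjusted p = 2.45e-05). In the co-culture it rose 1.37-fold with enzalutamide (0.45 ± 0.086, adjusted p = 0.0014), a call lost with the numbering series as a term (adjusted p = 0.0522). Without fibroblasts its log2 fold change with enzalutamide was 0.020 ± 0.088 (adjusted p = 0.918). The test of the difference between these responses gave 0.43 ± 0.12 (adjusted p = 0.55), so a difference was not shown.

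Itga5, the fibronectin receptor subunit, was 389, 404 and 399 CPM in the Sparc-deficient co-culture and 332, 337 and 344 CPM in cells alone (log2 fold change 0.24 ± 0.052 (SE), adjusted p = 0.0042). It was 339, 342 and 348 CPM in the enzalutamide co-culture and 287, 263 and 302 CPM after isoliquiritigenin was added (log2 fold change -0.27 ± 0.052 (SE), adjusted p = 0.000326). Neither pair of groups overlapped. The wild-type co-culture was at 359 ± 8.51 CPM, and edgeR over all 18 libraries did not call the Sparc-deficient co-culture against it. DESeq2 called it higher (adjusted p = 0.0168). So did edgeR with the 2 groups fitted alone (0.0367) and without replicate 2 of enzalutamide in the fit (0.0227). Itgav, the alpha subunit with the widest choice of beta partners, fell with isoliquiritigenin from 491, 481 and 447 to 396, 339.6 and 369 CPM (log2 fold change -0.36 ± 0.072 (SE), adjusted p = 0.000506). Itgav was called in no other comparison. Itga2b, the platelet fibrinogen receptor subunit, was at 10.1, 9.05 and 12.04 CPM in cells alone and was called in no comparison. The platelet markers Gp9 and Ppbp, listed with it, were at 0 in every library and at 0.49 to 12.8 CPM. The sum of that list was 21.3 to 24.9 CPM in the Sparc-deficient co-culture, against 10.1 to 13.5 in the wild-type co-culture and 11.03 to 13.5 in cells alone. In the enzalutamide, enzalutamide co-culture and isoliquiritigenin groups it was 10.3 to 11.2, 9.84 to 11.4 and 9.90 to 11.8 CPM. Without Itga2b, the Sparc-deficient co-culture had 9.99 to 13.4 CPM, the wild-type co-culture 1.77 to 3.07 and cells alone 1.48 to 1.98. Gp1ba reached at most 2.08 and Pf4 at most 0.108 CPM in any library, so most of the higher sum lay on Ppbp.

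Of the beta partners of alpha v, the abundant Itgb5 and the less abundant Itgb8, which binds latent TGF-beta, were called in no comparison, while Itgb3 was. Without the filter or with library totals, Itgb8 was called lower with enzalutamide over cells alone (adjusted p = 0.0377 and 0.0383). Itgb3, the vitronectin and osteopontin receptor subunit, was 12.5, 13.7 and 12.5 CPM in cells alone and 17.7, 19.1 and 14.5 with enzalutamide (log2 fold change 0.39 ± 0.10 (SE), adjusted p = 0.0124). In the wild-type co-culture it was 10.3, 10.4 and 11.02, in the enzalutamide co-culture 16.1, 13.9 and 14.2 and in the isoliquiritigenin co-culture 10.1, 9.19 and 11.5. It rose with enzalutamide in the co-culture (log2 fold change 0.48 ± 0.10 (SE), adjusted p = 0.00404) and fell with isoliquiritigenin (-0.52 ± 0.10, adjusted p = 0.000378), each time with no overlap. Without fibroblasts the call was lost without replicate 1 or 3 of cells alone (adjusted p = 0.0568 and 0.0553), without replicate 1 or 2 of enzalutamide (0.0549 and 0.0533), with the 2 groups fitted alone (0.0624) and with library totals (0.33). Itgb5 group means were 548 to 602 CPM and those of Itgb8 43.9 to 52.1 CPM. Itga9, which binds tenascin and osteopontin with Itgb1, was at group means of 1.25 to 1.83 CPM and was called in no comparison.

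Beta subunits of leukocyte integrins were detected, with their usual alpha partners at a few counts or 0. Itgb2 was 9.28, 9.43 and 11.3 CPM in cells alone, 15.7, 12.6 and 13.8 in the wild-type co-culture and 12.7, 13.98 and 13.97 in the Sparc-deficient co-culture, both co-cultures lying above all 3 libraries of cells alone. The difference was 0.49 ± 0.11 on the log2 scale for the wild-type co-culture (adjusted p = 0.0412) and 0.44 ± 0.11 for the Sparc-deficient one (adjusted p = 0.0115). The first was lost without any 1 of its 6 libraries (adjusted p from 0.0733 to 0.284), the other without replicate 1 or 2 of cells alone (0.0743 and 0.0641) or replicate 2 of the Sparc-deficient co-culture (0.0501). With isoliquiritigenin Itgb2 went from 13.1, 15.5 and 16.6 to 11.9, 10.9 and 12.7 CPM (log2 fold change -0.34 ± 0.11 (SE), adjusted p = 0.0183). That call was lost without replicate 2 or 3 of the enzalutamide co-culture (adjusted p = 0.0594 and 0.106) or replicate 2 of the isoliquiritigenin co-culture (0.0906).

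Itgb7, the beta subunit of gut-homing lymphocyte integrins, was 4.25, 5.04 and 4.39 CPM in cells alone, 7.60, 6.71 and 5.26 in the wild-type co-culture and 7.43, 6.69 and 7.31 in the Sparc-deficient co-culture. It was 6.46, 4.53 and 8.98 with enzalutamide, 9.34, 8.29 and 7.95 in the enzalutamide co-culture and 11.5, 17.4 and 13.8 in the isoliquiritigenin co-culture. The isoliquiritigenin libraries were the 3 highest of the study, and this was the only called rise with isoliquiritigenin among the 30 genes (log2 fold change 0.73 ± 0.16 (SE), adjusted p = 0.00114). Itgb7 also rose in the Sparc-deficient co-culture over cells alone (log2 fold change 0.65 ± 0.19 (SE), adjusted p = 0.0273) and with enzalutamide over cells alone (0.61 ± 0.19, adjusted p = 0.04), where the ranges overlapped. The former call was lost without replicate 1 or 3 of cells alone (adjusted p = 0.114 and 0.0872) or any library of the Sparc-deficient co-culture (up to 0.0817). The latter was lost without any library of cells alone (up to 0.132) or replicate 1 or 3 of enzalutamide (0.0525 and 0.3), with the 2 groups fitted alone (0.131) and with library totals (0.201).

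Of 9 leukocyte markers, 7 were under 1 CPM in every library. Ptprc, the pan-leukocyte phosphatase, reached 0.182 CPM at most, and the macrophage gene Adgre1 and the T cell gene Cd3e were at 0 in all 18 libraries. Itgal, Itgam and Itgax, the alpha partners of Itgb2, had at most 3 counts in a library. Itgae, an alpha partner of Itgb7, was at 0.138 to 0.781 CPM and was called in no comparison. Without replicate 2 of the enzalutamide co-culture or replicate 1 of the isoliquiritigenin co-culture it was called lower with isoliquiritigenin (adjusted p = 0.0382 and 0.0348), and it overlaps the gene Haspin on the opposite strand. Leukocyte marker sums, which hold Itgb2 itself, were 14.3 to 15.98 CPM in cells alone, 16.4 to 19.1 in the wild-type co-culture, 17.7 to 22.1 in the Sparc-deficient co-culture, 18.03 to 18.8 with enzalutamide, 16.7 to 21.3 in the enzalutamide co-culture and 16.4 to 17.9 in the isoliquiritigenin co-culture. Without Itgb2 and the other genes of the set, these sums were 4.69 to 6.10, 3.33 to 4.70, 4.77 to 8.12, 5.02 to 7.07, 3.59 to 4.75 and 4.55 to 5.47 CPM in the same order.

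**Figure D5:**
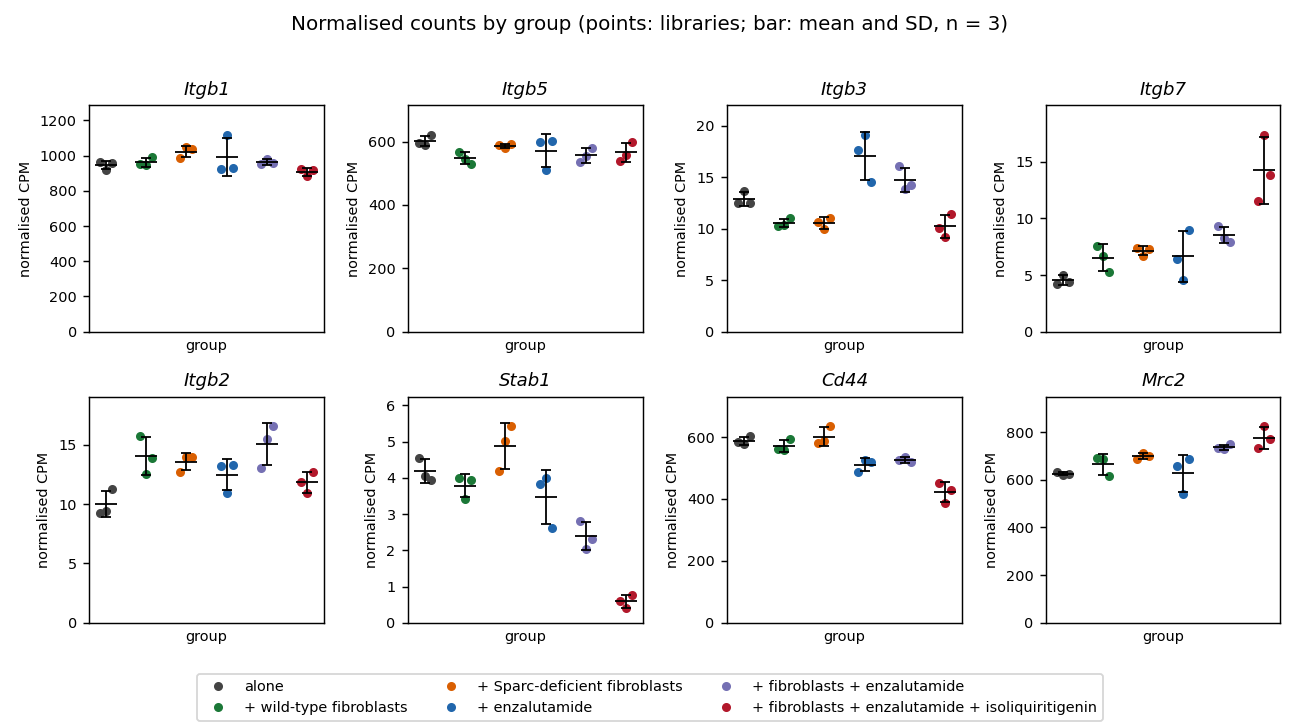
Normalised CPM (axes from 0) of Itgb1, Itgb5, Itgb3, Itgb7, Itgb2, Stab1, Cd44 and Mrc2 in each library, coloured by group, with mean and SD over 3 libraries. Itgb1 and Itgb5 stay nearly level, Itgb7 is highest and Stab1 lowest in the isoliquiritigenin co-culture.

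Stab1 showed the largest change of the set, at a low level of 9 to 124 counts per library. It was 4.55, 4.05 and 3.95 CPM in cells alone, 4.01, 3.41 and 3.94 in the wild-type co-culture and 4.19, 5.02 and 5.43 in the Sparc-deficient co-culture. It was 3.83, 3.99 and 2.62 with enzalutamide, 2.80, 2.05 and 2.33 in the enzalutamide co-culture and 0.609, 0.414 and 0.758 in the isoliquiritigenin co-culture. Each isoliquiritigenin library lay below every other library of the study. The fall from the enzalutamide co-culture was 3.97-fold (log2 fold change -1.99 ± 0.25 (SE), adjusted p = 1.52e-06). The enzalutamide co-culture was itself below the wild-type co-culture (log2 fold change -0.65 ± 0.18 (SE), adjusted p = 0.0278), a call lost without replicate 1 or 3 of the wild-type co-culture (adjusted p = 0.0956 and 0.0943), without replicate 2 or 3 of the enzalutamide co-culture (0.148 and 0.0868) and with numbering series as a model term (0.517). Stab1 is a gene of macrophages and sinusoidal endothelium and overlaps Nt5dc2 on the opposite strand. Of 7 endothelial markers, 5 were under 1 CPM in every library and Cldn5 was at 0 in all, and their sums were 4.02 to 4.50 CPM in the enzalutamide co-culture and 6.52 to 6.71 CPM in the isoliquiritigenin co-culture. In cells alone, the wild-type co-culture, the Sparc-deficient co-culture and enzalutamide they were 6.50 to 7.50, 5.21 to 6.35, 4.09 to 4.47 and 3.96 to 6.05 CPM.

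Cd44, the main hyaluronan receptor, was 585, 578 and 603 CPM in cells alone and 487, 526 and 520.05 with enzalutamide (log2 fold change -0.20 ± 0.058 (SE), adjusted p = 0.0214). It was 525, 537 and 519 in the enzalutamide co-culture and 453, 387 and 428 in the isoliquiritigenin co-culture (log2 fold change -0.32 ± 0.058 (SE), adjusted p = 0.00019). Neither pair of ranges overlapped. The call with enzalutamide was lost without replicate 1 or 3 of cells alone (adjusted p = 0.0614 and 0.0879) or replicate 1 of enzalutamide (0.0733).

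All 4 syndecans rose in the Sparc-deficient co-culture over the wild-type co-culture, and all 4 fell with isoliquiritigenin. Sdc4, which acts with integrins at focal adhesions, was 142, 134 and 145 CPM in cells alone, 137, 129 and 143 in the wild-type co-culture and 187, 176 and 180.01 in the Sparc-deficient co-culture. It was 129.9, 116 and 113 with enzalutamide, 109.8, 109 and 111 in the enzalutamide co-culture and 94.6, 94.2 and 94.8 in the isoliquiritigenin co-culture. The Sparc-deficient co-culture held the 3 highest values and the isoliquiritigenin co-culture the 3 lowest. Sdc4 rose 1.33-fold with Sparc-deficient against wild-type fibroblasts (log2 fold change 0.41 ± 0.052 (SE), adjusted p = 8.08e-06) and 1.29-fold against cells alone (0.37 ± 0.052, adjusted p = 3.66e-05). It fell with enzalutamide without fibroblasts (log2 fold change -0.22 ± 0.053 (SE), adjusted p = 0.00665) and with them (-0.30 ± 0.053, adjusted p = 0.000564), and again with isoliquiritigenin (-0.22 ± 0.053, adjusted p = 0.00318). With cells alone and enzalutamide fitted alone, adjusted p was 0.081.

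Sdc2, the syndecan of mesenchymal cells, was the most abundant of the 4. Its values were 376, 381 and 382 CPM in cells alone, 337, 344 and 389 in the wild-type co-culture and 429.8, 462 and 439 in the Sparc-deficient co-culture. They were 277, 337 and 242 with enzalutamide, 281, 283 and 278 in the enzalutamide co-culture and 209.8, 170.3 and 197 in the isoliquiritigenin co-culture. As with Sdc4, the Sparc-deficient co-culture was highest and the isoliquiritigenin co-culture lowest, with no overlap with any other group. Sdc2 rose 1.24-fold in the Sparc-deficient over the wild-type co-culture (log2 fold change 0.32 ± 0.084 (SE), adjusted p = 0.0162). It fell 1.33-fold with enzalutamide in cells alone (log2 fold change -0.42 ± 0.085 (SE), adjusted p = 0.00215), 1.27-fold in the co-culture (-0.35 ± 0.085, adjusted p = 0.0121) and 1.46-fold with isoliquiritigenin (-0.54 ± 0.085, adjusted p = 3.5e-05). The rise was lost without replicate 1 or 2 of the wild-type co-culture (adjusted p = 0.0793 and 0.0716) or replicate 2 of the Sparc-deficient co-culture (0.0795). The fall in the co-culture was lost without replicate 3 of the wild-type co-culture (0.0838) and with numbering series as a model term (0.208). Over cells alone, Sdc2 was not called in the Sparc-deficient co-culture by edgeR over all 18 libraries. It was called higher without the filter (adjusted p = 0.00973), with the 2 groups fitted alone (0.000319) and without replicate 2 of enzalutamide in the fit (0.0132).

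Sdc3, the syndecan of neural tissue, was the least abundant. It was 15.4, 12.4 and 14.9 CPM in cells alone, 12.5, 11.9 and 12.6 in the wild-type co-culture and 18.3, 22.5 and 17.7 in the Sparc-deficient co-culture, a 1.58-fold rise over the wild-type co-culture (log2 fold change 0.66 ± 0.12 (SE), adjusted p = 0.000464). Over cells alone the log2 difference was 0.45 ± 0.12 (adjusted p = 0.0128), lost without replicate 2 of cells alone (0.0973) or replicate 2 of the Sparc-deficient co-culture (0.108). With isoliquiritigenin it went from 10.7, 10.2 and 12.1 to 5.95, 5.84 and 7.83 CPM, a 1.68-fold fall (log2 fold change -0.75 ± 0.13 (SE), adjusted p = 0.000141). Sdc1, the epithelial and plasma cell syndecan, was 138, 138 and 128 CPM in the wild-type and 161, 149 and 149 CPM in the Sparc-deficient co-culture (log2 fold change 0.18 ± 0.057 (SE), adjusted p = 0.0377). Cells alone were at 129, 132 and 141 CPM (log2 fold change 0.19 ± 0.057 (SE), adjusted p = 0.0337 for the Sparc-deficient co-culture). Both calls were lost in 5 of 6 refits that left out a compared library. Against the wild-type co-culture, adjusted p was up to 0.161, and only the refit without replicate 3 of the Sparc-deficient co-culture kept the call. Against cells alone, adjusted p was up to 0.166, and only the refit without replicate 3 of cells alone kept it. The fall of Sdc1 with isoliquiritigenin, from 137, 130.3 and 148 to 103, 99.9 and 107 CPM, held on leaving out each compared library in turn (log2 fold change -0.42 ± 0.057 (SE), adjusted p = 5.68e-06).

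Sequences around the transcription start are shown for the genes called between the Sparc-deficient and the wild-type co-culture, except Itga6 and Sdc2, which had no window. The called genes moved together or, for Itga8, the other way. The sequences are 300-base windows from RefSeq on GRCm38.p6, 250 bases before to 50 after the start, written 5′ to 3′ on the gene's strand. Capitals mark GC boxes (GGGCGG or its reverse complement CCGCCC). Of the 35 genes, 26 matched an entry, in 32 windows, and Sdc1, Sdc3, Sdc4, Itga11 and Itga8 were among them. The windows are chr12:8771146-8771445 (plus strand) for Sdc1, chr4:130792287-130792586 (plus) for Sdc3, chr2:164443139-164443438 (minus) for Sdc4, chr9:62677605-62677904 (plus) for Itga11 and chr2:12301895-12302194 (minus) for Itga8.
Sdc1: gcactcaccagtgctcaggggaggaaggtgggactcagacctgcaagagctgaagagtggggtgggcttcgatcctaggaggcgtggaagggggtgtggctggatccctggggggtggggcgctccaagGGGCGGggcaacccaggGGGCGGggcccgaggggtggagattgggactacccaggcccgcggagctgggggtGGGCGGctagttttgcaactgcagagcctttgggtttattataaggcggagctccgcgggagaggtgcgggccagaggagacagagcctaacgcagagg
Sdc3: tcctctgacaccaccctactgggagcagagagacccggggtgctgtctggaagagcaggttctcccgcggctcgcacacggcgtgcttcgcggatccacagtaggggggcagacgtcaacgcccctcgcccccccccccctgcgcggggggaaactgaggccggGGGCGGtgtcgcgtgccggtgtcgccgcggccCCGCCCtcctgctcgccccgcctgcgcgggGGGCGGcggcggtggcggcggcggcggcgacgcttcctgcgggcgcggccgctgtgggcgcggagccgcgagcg
Sdc4: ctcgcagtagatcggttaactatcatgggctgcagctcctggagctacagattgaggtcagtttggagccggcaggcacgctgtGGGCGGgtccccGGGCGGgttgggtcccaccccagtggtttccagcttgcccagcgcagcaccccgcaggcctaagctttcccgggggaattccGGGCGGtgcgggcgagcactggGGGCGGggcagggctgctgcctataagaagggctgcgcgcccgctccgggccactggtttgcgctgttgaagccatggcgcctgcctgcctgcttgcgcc
Itga11: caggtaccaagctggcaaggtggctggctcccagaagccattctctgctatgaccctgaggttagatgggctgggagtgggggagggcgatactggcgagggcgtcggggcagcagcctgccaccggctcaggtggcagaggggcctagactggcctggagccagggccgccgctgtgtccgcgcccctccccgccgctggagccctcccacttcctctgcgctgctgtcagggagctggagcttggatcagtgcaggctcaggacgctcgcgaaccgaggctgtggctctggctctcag
Itga8: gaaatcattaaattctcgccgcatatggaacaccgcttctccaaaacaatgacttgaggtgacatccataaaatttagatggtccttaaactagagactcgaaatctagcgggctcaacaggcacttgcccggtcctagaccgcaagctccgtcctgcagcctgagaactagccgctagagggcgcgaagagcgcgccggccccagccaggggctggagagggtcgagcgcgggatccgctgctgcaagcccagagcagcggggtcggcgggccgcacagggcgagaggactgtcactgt

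The 3 syndecan windows held 3, 3 and 4 GC boxes, and the Itga11 and Itga8 windows held 0. Over the 26 genes with a window, 18 of 32 windows held a GC box (56.2%), where 35.7% of all 32851 windows of that length did. Some genes had several windows, and 14 of the 26 genes had a window with a GC box. The AP-1 motif TGANTCA was in 12.5% of these 32 windows and 7.81% of all, the TEAD motif GGAATG or CATTCC in 6.25% and 14.7%, and the STAT motif TTCNNNGAA in 3.12% and 8.3%. None of the 5 printed windows held any of these 3 motifs. Both strands were read, matches of different motifs may share bases, and a match describes letters, not a bound site.

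Cytoplasmic partners of integrins were a list of 40 adaptors and adhesion kinases, 36 of them tested. Calls in either direction, as a share of the tested list against the share of all tested genes, were 0% against 0.515% for the wild-type co-culture over cells alone, 8.33% against 11.5% for the Sparc-deficient over the wild-type co-culture and 11.1% against 9.74% for it over cells alone. They were 19.4% against 12% for enzalutamide without fibroblasts, 11.1% against 7.18% in the co-culture, 2.78% against 2.08% for fibroblasts under enzalutamide and 47.2% against 26.5% for isoliquiritigenin. In the Sparc-deficient over the wild-type co-culture, 1 was higher (Kank1, 0.35 ± 0.080, adjusted p = 0.00468) and 2 were lower (the actin crosslinker Flna, -0.27 ± 0.063, adjusted p = 0.00573, and Krit1, -0.25 ± 0.070, adjusted p = 0.0222). With isoliquiritigenin 3 rose and 14 fell. Among the latter were Ptk2b, a kinase related to focal adhesion kinase (21.9 ± 1.02 to 12.3 ± 1.17 CPM, log2 fold change -0.82 ± 0.081 (SE), adjusted p = 6.9e-08), the kinase Src (177 ± 11.6 to 130.2 ± 5.14 CPM, -0.44 ± 0.051, adjusted p = 5.39e-07) and the actin linker Actn1 (418 ± 3.59 to 308 ± 27.5 CPM, -0.44 ± 0.056, adjusted p = 2.3e-06). With enzalutamide 4 rose and 3 fell without fibroblasts, Dab2, an adaptor of integrin endocytosis, among the former (log2 fold change 0.30 ± 0.057 (SE), adjusted p = 0.00107), and 3 rose and 1 fell with them. The scaffold Nedd9 rose with enzalutamide in the co-culture, from 19.5 ± 0.999 to 28.5 ± 2.92 CPM (log2 fold change 0.55 ± 0.082 (SE), adjusted p = 0.000117). Over cells alone, the Sparc-deficient co-culture had 4 higher and 0 lower, and fibroblasts under enzalutamide went with 1 and 0. The wild-type co-culture had 0 calls by edgeR (9 at an unadjusted p under 0.05) and 1 by DESeq2. Library totals ended the calls of Kank1, Flna and Dab2 named here, and of Krit1, which was also lost without replicate 2 or 3 of the wild-type co-culture or replicate 1 or 2 of the Sparc-deficient co-culture (adjusted p up to 0.111). Nedd9 was lost with numbering series as a model term (0.0522).

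Matrix ligands of integrins, 50 genes with 43 tested, had 18 higher and 2 lower in the Sparc-deficient over the wild-type co-culture. In the same order and against the same shares of all tested genes, the shares of this list called in either direction were 9.30%, 46.5%, 41.9%, 41.9%, 34.9%, 16.3% and 48.8%. Ccn1, a matricellular ligand of alpha v integrins, went from 529 ± 5.36 to 974 ± 46.2 CPM (log2 fold change 0.88 ± 0.066 (SE), adjusted p = 3.6e-09). Its relative Ccn2 went from 129.98 ± 5.54 to 219.7 ± 27.5 (0.76 ± 0.076, adjusted p = 3.47e-07), and osteopontin, encoded by Spp1, from 672 ± 31.4 to 968 ± 73.3 (0.53 ± 0.063, adjusted p = 4.06e-06). Over cells alone the Sparc-deficient co-culture had 16 higher and 2 lower ligands, and the wild-type co-culture 0 higher and 4 lower, Ccn2 (-0.40 ± 0.076, adjusted p = 0.0143) among the latter. That Ccn2 call was lost without replicate 1 or 3 of cells alone (adjusted p = 0.0793 and 0.153) or replicate 1 or 2 of the wild-type co-culture (0.0625 and 0.109), and with library totals (0.607). Enzalutamide went with 8 higher and 10 lower without fibroblasts, and 5 and 10 with them. Tgfb3, which carries an RGD motif in its latency peptide, fell in both (-0.70 ± 0.066, adjusted p = 1.66e-07, and -0.62 ± 0.066, adjusted p = 1.42e-06), while Spp1 rose in both (0.49 ± 0.063, adjusted p = 1.58e-05, and 0.44 ± 0.063, adjusted p = 6.68e-05), calls lost with library totals (0.129 and 0.0786). Fibroblasts under enzalutamide went with 3 higher and 4 lower. With isoliquiritigenin 8 rose and 13 fell. Fibronectin, encoded by Fn1, went from 10038 ± 326 to 7245 ± 528 CPM (log2 fold change -0.47 ± 0.056 (SE), adjusted p = 1.01e-06) and tenascin-X, encoded by Tnxb, from 5.46 ± 0.641 to 13.04 ± 1.45 CPM (1.26 ± 0.13, adjusted p = 8.83e-08).

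Genes of hyaluronan turnover and binding, 15 with 11 tested, had 4 higher and 0 lower in the Sparc-deficient over the wild-type co-culture, and 3 and 1 over cells alone. In the same order and against the same shares of all tested genes, the shares of this list called in either direction were 0%, 36.4%, 36.4%, 45.5%, 27.3%, 0% and 36.4%. The proteoglycan versican, encoded by Vcan, went from 226 ± 6.02 to 343 ± 36.7 CPM with enzalutamide (log2 fold change 0.60 ± 0.067 (SE), adjusted p = 2.04e-06), and Cemip, a hyaluronan-degrading protein, from 169.9 ± 10.5 to 243 ± 13.4 (0.52 ± 0.077, adjusted p = 8.4e-05). The list had 3 higher and 2 lower there, 3 and 0 with enzalutamide in the co-culture, and 2 and 2 with isoliquiritigenin. Has2, the main hyaluronan synthase of mesenchymal cells, fell in the latter from 5.25 ± 0.268 to 3.45 ± 0.557 CPM (log2 fold change -0.59 ± 0.14 (SE), adjusted p = 0.00301). Layn and Cemip2 rose there, with smaller p (log2 fold change 0.45 ± 0.054 (SE), adjusted p = 1.13e-06, and 0.31 ± 0.056, adjusted p = 0.000154). Wild-type fibroblasts went with 0 calls by edgeR (2 at an unadjusted p under 0.05) and 0 by DESeq2, and fibroblasts under enzalutamide with 0 calls by edgeR (1 at an unadjusted p under 0.05) and 0 by DESeq2. Cemip lost its call with library totals (0.109). Partners of syndecans and dystroglycan, 28 genes with 26 tested, had 1 higher and 0 lower with wild-type fibroblasts, 5 and 2 for Sparc-deficient over wild-type fibroblasts, and 5 and 1 for Sparc-deficient fibroblasts over cells alone. With enzalutamide there were 3 higher and 4 lower without fibroblasts and 1 and 2 with them, 1 and 0 for fibroblasts under enzalutamide, and 6 and 3 with isoliquiritigenin. In the same order and against the same shares of all tested genes, the shares of this list called in either direction were 3.85%, 26.9%, 23.1%, 26.9%, 11.5%, 3.85% and 34.6%.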

How the data were processed

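Raw read counts per Ensembl gene were deposited for each library, not normalised by the authors. The submitters' processing notes name the build GRCm38 and, with no order or role, featureCounts 2.0, STAR 2.6.1d, DESeq2, cutadapt 2.9, bcl2fastq 2.20.0.422 and FastQC 0.11.9; the strand setting and handling of multi-mapping reads are not given in the sources used here. Per the labels, libraries were stranded (dUTP) and poly(A)-selected. Here, genes were named and measured for length through GENCODE M21, all 35 genes being found. Low counts were removed with filterByExpr (minimum count 10), leaving 13600 genes. All 18 libraries entered 1 TMM-scaled model in R 4.3.3 with edgeR 4.0.16 (limma 3.58.1), 1 mean per group, 12 residual degrees of freedom, two-sided quasi-likelihood tests. CPM and RPKM use TMM-scaled totals; errors are SD over 3 libraries, and SE for log2 fold changes. The genes and lists were chosen with earlier results of these data known. All 35 genes are named; values per library are given for Itgb1, Mrc2, Itga2b, Stab1 and those called in a comparison with a mean of at least 5 CPM in either group, and of each other list up to 3 called genes by smallest p could be named. On simulated counts for the Sparc-deficient against the wild-type co-culture (13413 genes tested), 66.7% of 1.5-fold and 89.9% of 2-fold changes were recovered, with 4 false calls among 13215 unchanged genes. DESeq2 1.42.0 and the settings of the closing section were tried as alternatives.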

Additional observations from a re-analysis of the deposited data

How the results depend on the processing

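Of the 47 calls of a gene in a comparison, 17 held under each setting and each left-out library tried: Itga6, Itga8, Itga11 and Sdc3 in the Sparc-deficient over the wild-type co-culture, Itga6 and Itga8 in the Sparc-deficient co-culture over cells alone, Itga7 and Sdc2 with enzalutamide without fibroblasts, and Itga6, Itga7, Itgav, Itgb3, Itgb7, Stab1, Sdc1, Sdc2 and Sdc3 with isoliquiritigenin. Over 743 refits of these calls, 637 kept the call, 105 lost it and 1 reversed, Ddr2 with enzalutamide by library totals (log2 fold change -0.00466). Library totals in place of TMM ended 26 calls, the 2 compared groups alone 6, the numbering series as a term 4, no filter 2, the replicate block 2 and DESeq2 1. Replicate 2 of enzalutamide without fibroblasts had a TMM factor of 0.685, and the other libraries had 1.00 to 1.04. That library enters the spread estimated over all 6 groups, also in comparisons that do not use it. The cause of the losses was not tested. Counts of called genes by library totals were 0 for the wild-type co-culture over cells alone (main 1), 4 for the Sparc-deficient over the wild-type co-culture (main 7), 2 for it over cells alone (main 10), 0 for enzalutamide in the co-culture (main 6) and 9 for isoliquiritigenin (main 14). Without the filter they were 2 and 1 for the wild-type co-culture over cells alone and under enzalutamide (main 1 and 0), and DESeq2 gave 1 in the latter. With the compared groups alone they were 16 for the Sparc-deficient co-culture over cells alone and 3 for enzalutamide over cells alone (main 9). The numbering series as a term gave 2 for enzalutamide in the co-culture. Leaving out 1 library gave 0 to 1 genes for the wild-type co-culture over cells alone, 5 to 10 for the Sparc-deficient over the wild-type co-culture, 5 to 13 for it over cells alone, 3 to 8 for enzalutamide over cells alone, 3 to 7 for enzalutamide in the co-culture, 0 to 1 for fibroblasts under enzalutamide, 13 to 15 for isoliquiritigenin and 0 to 0 for the difference of the enzalutamide responses.

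Same-numbered replicates did not pair: over 15 pairs of groups, their correlations ran from -0.144 to 0.0982, and 0 pairs had all above 0.1. With the replicate block, called genes were 1, 8, 9, 8, 6, 0 and 15 in the 7 comparisons in the order of the report and 0 for the difference of responses; it ended Itga1 in the Sparc-deficient co-culture over cells alone (adjusted p = 0.0639) and Itgb7 with enzalutamide over cells alone (0.0531). By library totals, the median change of the levels was -9.52% for enzalutamide without fibroblasts and 0.70% to 3.61% for the other groups. Tested genes under about 20 counts in every library (Itga2, Itgae) are limited by depth. So are the lowest libraries of Stab1 (9 counts), Itga10 (13) and Itga9 (19).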

Other observations

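Enzymes that edit heparan sulfate, the sugar chains of syndecans, moved in different directions. Sulf2, a sulfatase that removes 6-O-sulfate outside the cell, was 69.6, 70.6 and 70.9 CPM in cells alone, 62.5, 61.98 and 55.3 in the wild-type co-culture and 42.97, 46.4 and 41.4 in the Sparc-deficient co-culture. It was 63.5, 68.3 and 64.6 with enzalutamide, 58.4, 61.1 and 66.9 in the enzalutamide co-culture and 127, 139 and 120.5 in the isoliquiritigenin co-culture. The Sparc-deficient co-culture libraries were the 3 lowest and the isoliquiritigenin libraries the 3 highest, the reverse of Sdc4 and Itga6. Sulf2 fell in the Sparc-deficient below the wild-type co-culture (log2 fold change -0.46 ± 0.067 (SE), adjusted p = 4.49e-05) and rose 2.07-fold with isoliquiritigenin (1.05 ± 0.064, adjusted p = 9.93e-11). Its relative Sulf1 fell with isoliquiritigenin, from 111 ± 3.55 to 88.9 ± 5.15 CPM (log2 fold change -0.32 ± 0.060 (SE), adjusted p = 0.00023), and rose in the Sparc-deficient co-culture over cells alone (0.44 ± 0.059, adjusted p = 2.25e-05).

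Hpse, the heparanase that cuts the chains, was 49.8, 50.9 and 57.9 CPM in the wild-type and 72.9, 75.4 and 69.6 CPM in the Sparc-deficient co-culture (log2 fold change 0.46 ± 0.076 (SE), adjusted p = 0.000228). It fell with enzalutamide in the co-culture, to 40.01, 39.8 and 40.99 CPM (log2 fold change -0.39 ± 0.078 (SE), adjusted p = 0.00222), and with isoliquiritigenin to 35.2, 30.7 and 28.4 CPM (-0.35 ± 0.080, adjusted p = 0.00175). The former call was lost with the numbering series as a term (adjusted p = 0.0889). Hs6st1, which adds 6-O-sulfate, was 45.9, 48.2 and 44.9 CPM in cells alone and 63.9, 63.1 and 58.2 CPM in the wild-type co-culture (log2 fold change 0.41 ± 0.057 (SE), adjusted p = 0.00139). With enzalutamide it was 63.9, 62.3 and 59.4 CPM without and 75.2, 83.5 and 82.7 CPM with fibroblasts (log2 fold change 0.38 ± 0.056 (SE), adjusted p = 0.000637 for fibroblasts under enzalutamide). It was thus called higher with fibroblasts in both settings, although the fibroblasts may differ between them. The call under enzalutamide was lost with the numbering series as a term (adjusted p = 0.153). Library totals in place of TMM ended the calls of Sulf1 and Hpse with isoliquiritigenin (adjusted p = 0.0746 and 0.0838), of Hpse with enzalutamide in the co-culture (0.084) and of Hs6st1 in the wild-type co-culture (0.607).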
